A study of Mus musculus with 34 samples.

Results

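The uncrushed side of mice that lack ATF3 in sensory neurons was compared with that of their controls. RNA was measured by sequencing in lumbar dorsal root ganglia (the ganglia L4 to L6 that feed the sciatic nerve), dissociated and enriched for neurons on a Percoll layer. The 17 libraries of the uncrushed ("naive") side were taken by their labels from the 34 libraries of the series, 1 library for each mouse. All 17 mice were 8 to 12 weeks old and had carried a crush of the left sciatic nerve for 3 days, so the naive side is the opposite side of an injured animal and not an animal without injury. The 8 ATF3 cKO mice (5 female, 3 male) were labelled Adv-Cre positive with both copies of Atf3 floxed at exon 3. The 9 ATF3 wt controls (6 female, 3 male) were mixed, and none had both Cre and a floxed copy. There were 4 Cre-negative females with 1 floxed copy, 2 Cre-negative females with none, and 3 Cre-positive males with none. Every control female was therefore Cre-negative and every control male Cre-positive. Mice are named by genotype and animal number, as in cKO-131.

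ATF3 is a transcription factor of the bZIP class, related to the AP-1 and CREB families. It is scarce in resting sensory neurons and is induced within hours when their axons are cut or crushed. It then takes part in the switch to a growth state, in which genes such as Sprr1a, Gal, Gap43 and Sox11 are expressed. Adv-Cre expresses the recombinase from the control region of Avil, which codes for the actin-binding protein advillin and is used in peripheral sensory neurons, so glia, immune and vessel cells of the ganglion keep their Atf3.

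Atf3 itself was read at about the same level in both genotypes. Levels are in CPM, the deposited counts scaled to a common library size with TMM factors. Its lowest, median and highest values were 70.9, 124 and 151 CPM in cKO ganglia, against 76.1, 124 and 177 CPM in wt ganglia, and the groups overlapped. By edgeR's quasi-likelihood test cKO over wt was -0.02 on the log2 scale (SE 0.13, adjusted p = 0.999). The 95% interval ran from 0.815 to 1.19-fold. The count covers the whole gene and not the floxed exon alone, and cells other than neurons keep that exon, so this level does not check the deletion. On the crushed side of the same mice Atf3 averaged 264 ± 58.1 CPM in cKO ganglia (SD, n = 8) and 363 ± 145 CPM in wt ganglia (SD, n = 9).

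Avil, whose control region drives the Cre, differed more. It averaged 449 ± 148 CPM in cKO ganglia and 728 ± 206 CPM in wt ganglia. In edgeR's fit cKO over wt was -0.66 on the log2 scale (SE 0.27, unadjusted p = 0.0255, adjusted p = 0.999). In 7 of the cKO mice Avil lay between 479 and 528 CPM, and cKO-131 stood apart at 85.2 CPM. The 3 Cre-positive controls had 486, 532 and 560 CPM, at or just above the levels of those 7. Among the Cre-negative controls 5 had 827 to 995 CPM, while wt-150, labelled Cre-negative, had 494 CPM. The same mice stood apart on the crushed side, with 89.7 CPM in cKO-131 and 511 CPM in wt-150. Within males, whose controls carry Cre as well, the log2 fold change was -0.09, and without cKO-131 and wt-150 it was -0.53. The genotype difference in Avil and the difference in Cre therefore cannot be told apart outside the males. For most cell lists and the interferon list, values without both of these mice are given below.

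**Figure D1:**
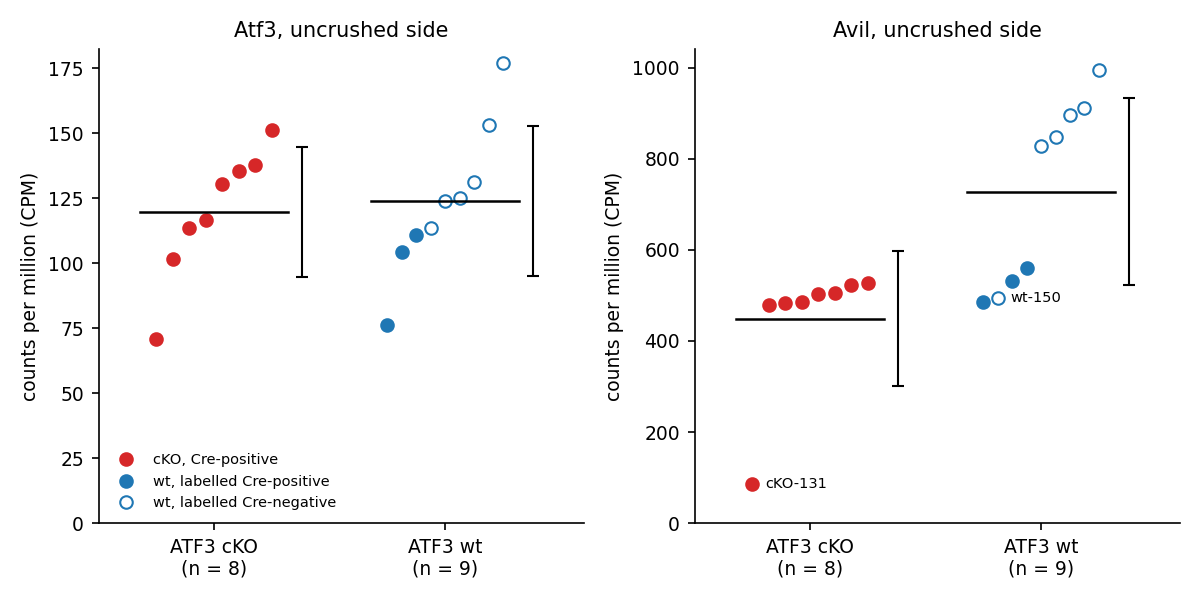
Atf3 and Avil on the uncrushed side, in CPM, for each of the 8 cKO and 9 wt mice; lines are group means, bars 1 SD, and open circles are controls labelled Cre-negative. Atf3 overlaps between the groups, while Avil follows the Cre label except in cKO-131 (85.2 CPM) and wt-150 (494 CPM).

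Depth was 53171611 to 77632944 counts in the cKO libraries and 47809985 to 73925627 in the wt libraries. As a check of the tissue label, pan-neuronal genes summed to 11070 to 14290 CPM in cKO and 12830 to 15570 CPM in wt ganglia, with the lowest sum in cKO-131, while skeletal muscle markers summed to at most 4.00 CPM in cKO and 4.397 CPM in wt ganglia. The first principal component held 44.5% of the variance and ran from -37.6 to 51.7 in cKO and from -56.1 to 26.3 in wt libraries, so the genotypes overlapped on it. Of 3 ribosomal RNA spacer genes AY036118 had 0 counts. Reads of Gm42418 and Gm26917 took 3.24% to 10.2% of the cKO counts and 3.75% to 10.1% of the wt counts.

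No gene passed the test on the uncrushed side. Of 18151 genes with enough counts, 0 had an adjusted p under 0.05 in edgeR (0%), and DESeq2 and limma-voom also called 0. At an unadjusted p under 0.05 there were 628 genes in edgeR (3.46%), 700 in DESeq2 and 623 in limma-voom. The edgeR genes were 545 higher in cKO ganglia (3%) and 83 lower (0.457%). The smallest unadjusted p of edgeR, 0.000162 with an adjusted p of 0.858, belonged to Olfm4, an olfactomedin of neutrophil subsets. Olfm4 averaged 0.973 ± 0.809 CPM in cKO ganglia and 0.294 ± 0.102 CPM in wt ganglia. Among the tested genes 0 had groups that did not overlap (0%). On the crushed side of the same mice, fitted alone, 1112 of 18809 genes passed (5.91%).

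A gene that misses the threshold is not shown to be equal, so each gene's 95% interval was used to give the largest fold difference, in either direction, that the data allow. This bound was under 1.5-fold for 14364 of 18151 genes (79.1%) and under 2-fold for 16829 (92.7%). Precision followed the level. Of the 1885 genes at 100 CPM or more, 98.6% were bounded within 1.5-fold and all but 1 within 2-fold. Of the 7284 genes at 10 to 100 CPM, 96.4% were bounded within 1.5-fold, and of the 5354 at 1 to 10 CPM, 80.4%. Of the 3628 genes at 0.1 to 1 CPM the share was 32.4%, and 932 of them could differ by 2-fold or more. Intervals widened to hold for all genes at once left 6618 genes (36.5%) within 1.5-fold, 11540 (63.6%) within 2-fold and 15892 (87.6%) within 4-fold.

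**Figure D2:**
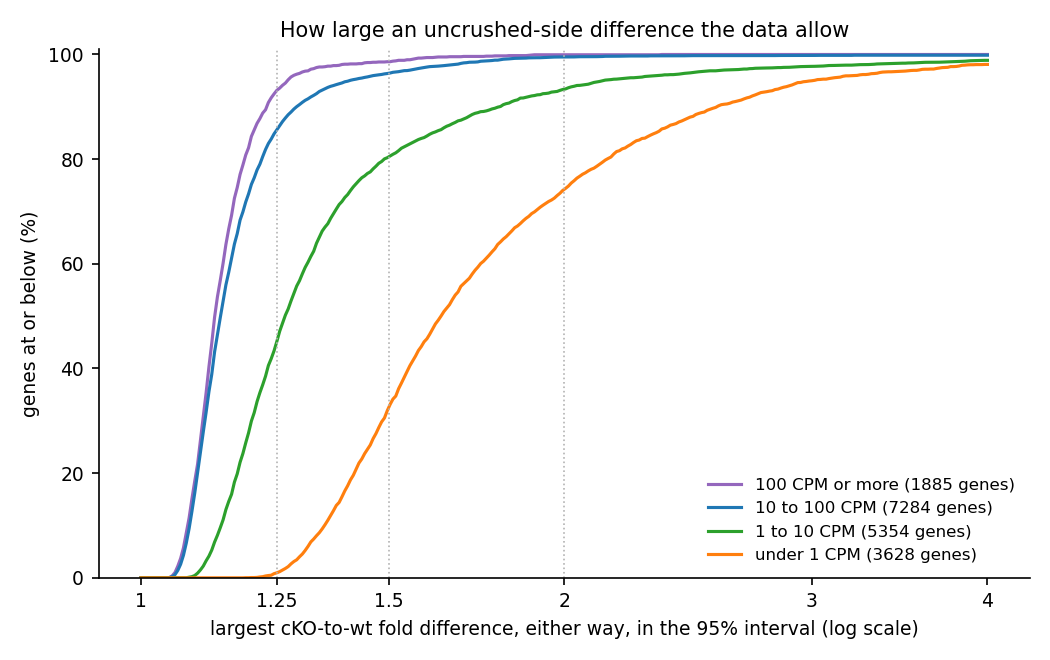
For each level class, the share of genes whose largest allowed difference between cKO and wt (the further end of the 95% interval, log axis) is at or below a given fold. At 1.5-fold the curves stand at 98.6% for genes of 100 CPM or more, 96.4% for 10 to 100 CPM, 80.4% for 1 to 10 CPM and 32.4% for genes under 1 CPM.

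Most genes of the growth program were bounded within 1.5-fold on the uncrushed side, at about the share of all genes. Of 43 regeneration-associated genes 38 had enough counts and 0 passed. Of these 38, 29 were bounded within 1.5-fold, beside 79.1% of all genes tested. The median log2 fold change of the 38 was -0.02, beside 0.01 for all genes. Csf1, the cytokine with which injured neurons recruit microglia, averaged 26.1 ± 4.16 CPM in cKO and 26.1 ± 3.58 CPM in wt ganglia, so that a difference over 1.15-fold lay outside its interval. Gap43, a protein of growth cones, ran from 129.8 to 173.9 CPM in cKO and from 112.3 to 194.6 CPM in wt ganglia, with a bound of 1.19-fold. The transcription factor gene Sox11 averaged 26.8 ± 4.37 CPM in cKO and 28.9 ± 5.29 CPM in wt ganglia, with a bound of 1.26-fold. Jun, the AP-1 partner of ATF3, had a bound of 1.17-fold, the stress gene Gadd45a 1.14-fold and the neurotrophin gene Bdnf 1.13-fold. Gal, the neuropeptide galanin, was more variable: its lowest, median and highest values were 10.6, 15.1 and 32.5 CPM in cKO and 11.3, 21.7 and 41.0 CPM in wt ganglia, and its interval ran from 0.544 to 1.19-fold.

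At an unadjusted p under 0.05 there were 5 of the 38 genes (13.2%, beside 3.46% of all genes), Ecel1 lower, which is described below with the scarce genes, and 4 higher. The higher ones were the annexin gene Anxa1 (log2 fold change 1.26), the interleukin-6 receptor gene Il6ra (0.79), Rab32 (0.60) and the urokinase receptor gene Plaur (0.38). Anxa1 averaged 8.76 ± 5.60 CPM in cKO and 3.70 ± 2.51 CPM in wt ganglia. Without cKO-131 and cKO-152, the mice with the highest neutrophil marker sums, Anxa1 gave 0.81, Rab32 0.40 and Plaur 0.24. Il6ra was at least 0.53 in every alternative. Of the 5 genes with too few counts, Arg1 had 60 counts in all cKO libraries and 57 in all wt libraries, and Vip had 25 and 33. The other 3, Sprr1a, Npy and Cckbr, are described below.

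The crushed side of the same mice shows what size of difference the assay registered for these genes: 21 of the 38 fell in cKO ganglia there and 0 rose, beside 5.91% of all genes. Gal averaged 20.1 ± 2.95 CPM in cKO and 213 ± 163.4 CPM in wt ganglia there, and cKO over wt was -3.39 on the log2 scale (SE 0.38, adjusted p = 4.91e-05, edgeR). Csf1 fell by 2.25 on the log2 scale (adjusted p = 0.000122, edgeR), and Gap43 fell by 1.41 (adjusted p = 0.00054). Gadd45a fell by 1.63 (adjusted p = 0.00137) and Sox11 by 1.23 (adjusted p = 0.0227). Jun, at 461 ± 74.0 CPM in cKO and 463 ± 143 CPM in wt ganglia, and Bdnf did not pass on the crushed side (edgeR adjusted p = 0.993 and 0.387).

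Among the injury genes that were scarce on the uncrushed side, Sprr1a alone separated the genotypes. Sprr1a, whose small proline-rich protein is made in regrowing axons, had 0 counts in 6 cKO libraries and 1 count in each of the other two, against 2, 4, 4, 7, 8, 8, 12, 15 and 28 counts in the wt libraries. Every wt library thus held more than every cKO library, and the total was 2 counts in cKO ganglia against 88 in wt ganglia. Relative to the depth of each group the cKO total was 0.0241 of the wt total, with an exact binomial 95% interval from 0.00287 to 0.0896 that covers counting error only. The count filter leaves Sprr1a out of the main test. With no filter it was the only gene of 32995 to pass in edgeR (0.00303%), at -4.76 on the log2 scale (SE 0.63, adjusted p = 0.0081), and the only gene whose groups did not overlap (0.00303%). It also passed with no filter in limma-voom (adjusted p = 0.000422) and in DESeq2 (adjusted p = 0.000138), which called Cd84 and Olfm4 as well. With no filter, leaving out each mouse in turn gave an adjusted p between 0.00454 and 0.0379 in edgeR. It was 0.67 in females alone, 1 in males alone and 0.104 without cKO-131 and cKO-152, with log2 fold changes of -4.64, -4.92 and -4.50.

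The counts of Sprr1a on the crushed side were 36 to 686 in cKO libraries and 4551 to 35189 in wt libraries. The uncrushed counts were 0.076% of the crushed counts in cKO mice and 0.0853% in wt mice. The cKO share rests on 2 counts, and single controls differed widely, from 8 counts beside 35189 in wt-172 to 28 beside 8643 in wt-155. Whether these few reads came from cells of the uncrushed ganglion or from crushed-side material was not tested.

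Cckbr, Npy and Ecel1 leaned the same way without passing. Cckbr, a receptor for cholecystokinin and gastrin, had 0 to 3 counts per cKO library against 2 to 37 per wt library (no filter: log2 fold change -2.49, SE 0.55, adjusted p = 0.924, edgeR). Npy, the neuropeptide that large sensory neurons express after axon injury, had 0 to 2 counts per cKO library against 0 to 63 per wt library, with 63 counts in wt-150, 56 in wt-155 and 13 in wt-195 but at most 3 in the other 6 controls. Ecel1, a neuronal endopeptidase that marks axonal damage, had 20 to 44 counts in cKO libraries against 20 to 132 in wt libraries, the highest in wt-141. Its log2 fold change was -0.89 (SE 0.30, unadjusted p = 0.0078, adjusted p = 0.878, edgeR). The uncrushed counts were 3.7% of the crushed counts in cKO mice and 0.915% in wt mice for Cckbr, 0.63% and 0.545% for Npy, and 7.22% and 2.12% for Ecel1.

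**Figure D3:**
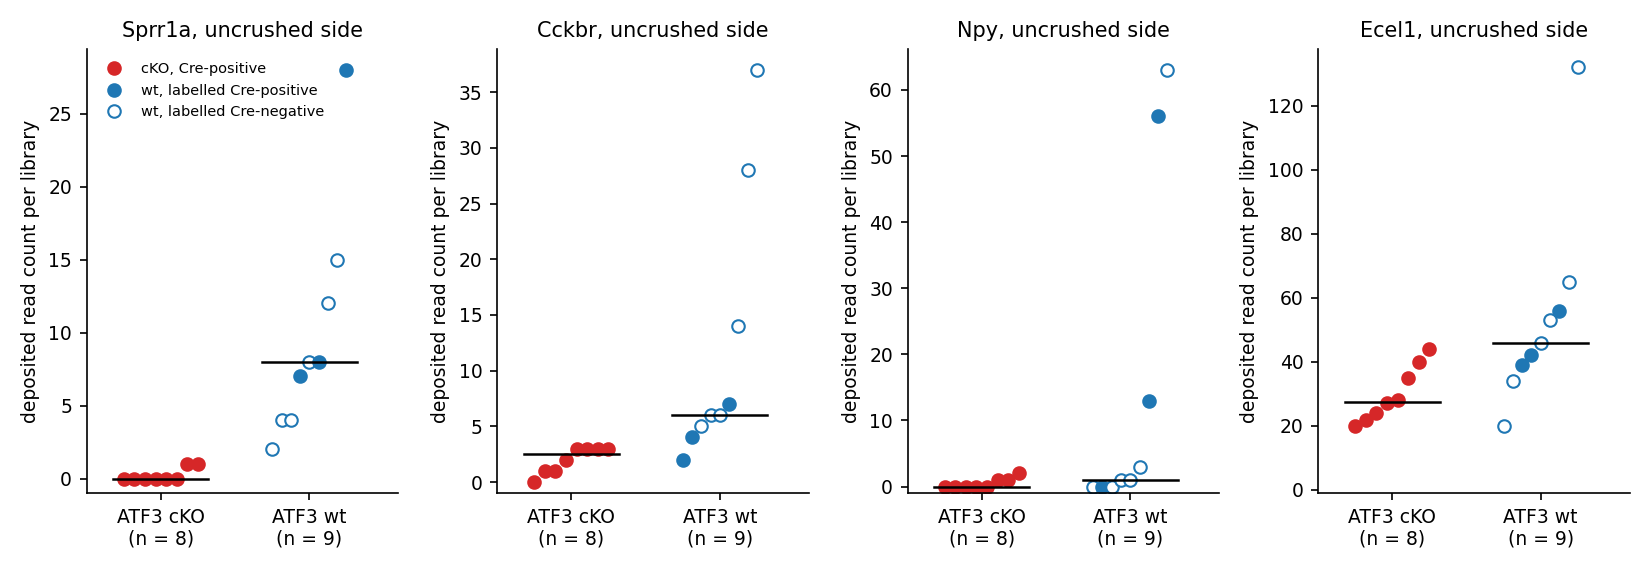
Deposited read counts of Sprr1a, Cckbr, Npy and Ecel1 on the uncrushed side, 1 point a mouse, with the group median as a line; open circles are controls labelled Cre-negative. For Sprr1a all 8 cKO mice lie at 0 or 1 and all 9 wt mice at 2 to 28, while the other genes overlap between the groups.

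The promoter of Sprr1a is shown because it is the one gene whose uncrushed counts separated the genotypes. The sequence is RefSeq's for GRCm38.p6, chr3:92485832-92486131 on the minus strand, 250 bases before to 50 after the start, with matches to the AP-1 motif TGANTCA in capitals.
Sprr1a promoter: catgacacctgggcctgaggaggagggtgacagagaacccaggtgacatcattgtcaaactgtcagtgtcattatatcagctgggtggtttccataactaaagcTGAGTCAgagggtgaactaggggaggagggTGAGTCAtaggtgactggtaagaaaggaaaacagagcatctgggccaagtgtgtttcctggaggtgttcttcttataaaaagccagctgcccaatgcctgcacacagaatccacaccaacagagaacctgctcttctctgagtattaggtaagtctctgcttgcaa

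Searched on both strands, TGANTCA matched 2 times in this window. Of 32851 mouse promoters of the same length 7.81% held at least 1 match and 0.46% held 2 or more. The CREB/ATF motif TGACGTCA had 0 matches, beside 1.79% of all promoters. All 4 genes had a promoter in the RefSeq table, and the windows of Cckbr, Npy and Ecel1 held neither motif. A match is a match of letters, and binding was not measured.

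Of the identity and excitability genes of the neurons 0 passed, and most were tightly bounded. Of 42 nociceptor genes 0 had an unadjusted p under 0.05, beside the 3.46% of all genes. Within 1.5-fold 37 were bounded, beside 79.1% of all genes. Scn10a, the sodium channel Nav1.8 of nociceptors, averaged 1719 ± 110 CPM in cKO and 1740 ± 149 CPM in wt ganglia, with a bound of 1.10-fold, and Calca, which codes for the peptide CGRP, had a bound of 1.13-fold. The heat-gated channel gene Trpv1 averaged 238 ± 65.5 CPM in cKO and 275 ± 58.3 CPM in wt ganglia, with a bound of 1.43-fold. All 24 mechanoreceptor and proprioceptor genes were bounded within 1.5-fold, among them the touch channel gene Piezo2 at 1.13-fold. All 35 potassium channel genes tested were bounded within 1.5-fold as well, and Kcna2, an axonal potassium channel, averaged 537 ± 89.9 CPM in cKO and 548 ± 71.3 CPM in wt ganglia. Of 27 sodium and calcium channel genes 1, the sodium channel subunit Scn2b, had an unadjusted p under 0.05. Its log2 fold change was -0.25 (SE 0.09, unadjusted p = 0.0165, adjusted p = 0.999, edgeR), with 164 to 275 CPM in cKO and 227 to 292 CPM in wt ganglia. The difference in Scn2b was -0.59 in males alone and -0.07 in females alone, on the log2 scale. The direct comparison of the sexes by an interaction term gave -0.54, male minus female (SE 0.15, unadjusted p = 0.00212, edgeR). It did not pass after adjustment. By sign alone, 27 of 35 potassium channel, 21 of 27 sodium and calcium channel, 20 of 25 pan-neuronal and 18 of 24 mechanoreceptor genes were below 0, with medians between -0.06 and -0.04, while 56.9% of all genes were above 0. The potassium channel, pan-neuronal and mechanoreceptor sums were lowest in cKO-131, at 3137, 11070 and 6820 CPM. The lowest wt sums were 3616, 12830 and 8403 CPM. The sodium and calcium channel sum was lowest in wt-146. The part of cKO-131 in these signs was not tested.

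Of the related transcription factors and stress genes 0 passed. Within 1.5-fold 79.1% of all genes were bounded, a share that the immediate early and neuropeptide genes did not reach. Of 28 AP-1 and CREB/ATF family genes tested 0 had an unadjusted p under 0.05 and 26 were bounded within 1.5-fold; Atf4 averaged 114 ± 8.10 CPM in cKO and 111 ± 8.66 CPM in wt ganglia. Of 25 immediate early genes 0 had such a p, but they varied more between mice, and 15 were bounded within 1.5-fold. Of 28 integrated stress response genes 25 were bounded within 1.5-fold, and 1 had an unadjusted p under 0.05 (3.57%, beside 3.46% of all genes). It was the cystine transporter gene Slc7a11, with an unadjusted p of 0.0213 in edgeR (1.499 ± 0.976 CPM in cKO, 0.882 ± 0.343 CPM in wt). Its log2 fold change was 0.76 over all mice and 0.27 without cKO-131 and cKO-152. Of 22 neuronal injury and death genes 20 were bounded within 1.5-fold, and 2 had an unadjusted p under 0.05 (9.09%, beside 3.46% of all genes). They were the apoptosis genes Bak1 (log2 fold change 0.15) and Bcl2l11 (0.35). All 26 cholesterol synthesis genes and all 37 RNA polymerase III genes lay within 1.5-fold; the furthest bounds were 1.28-fold and 1.31-fold. Of 18 neuropeptide genes tested, all were bounded within 2-fold and 10 within 1.5-fold, beside 92.7% and 79.1% of all genes.

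Markers of blood and immune cells leaned to the higher side by the most. Of 14 neutrophil markers 12 were higher with an unadjusted p under 0.05 (85.7%, beside 3% of all genes in that direction), and 0 passed. All 14 were higher in cKO ganglia, beside 56.9% of all genes. Their median log2 fold change was 1.33, beside 0.01 for all genes. The summed level was lowest at 71.8, median 212 and highest at 552 CPM in cKO ganglia, against 16.8, 67.8 and 260 CPM in wt ganglia. The highest sums were those of cKO-152 and cKO-131, with 552 and 433 CPM, the lowest was that of wt-172, and the groups overlapped. In bulk RNA more cells of a type and more RNA per cell cannot be told apart.

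Single neutrophil genes repeated this order of mice. Retnlg, a resistin-like gene of neutrophils, had a lowest, median and highest value of 2.21, 5.11 and 14.0 CPM in cKO and of 0.525, 1.87 and 6.25 CPM in wt ganglia. Its log2 fold change was 1.46 (SE 0.40, unadjusted p = 0.00184, adjusted p = 0.858, edgeR). The granule protein gene Ngp ran from 21.8 to 169 CPM in cKO and from 4.70 to 76.7 CPM in wt ganglia, and Mmp9, a gelatinase, from 2.87 to 21.8 CPM and from 1.14 to 10.8 CPM. In each of these genes 2 or 3 cKO mice lay above every wt mouse. Without cKO-131 and cKO-152 the neutrophil list had a median of 0.87 and 4 of 14 genes with an unadjusted p under 0.05, beside 1.05% of all genes. Without cKO-131 and wt-150 it had 1.15 and 9 of 14, beside 2.23%. In females alone 11 of 14 had such a p, beside 2.99% of all genes, and in males alone 0 of 14, beside 0.571%, with medians of 1.35 and 1.255.

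Other cell lists leaned the same way to a smaller degree. Of 16 macrophage markers 15 were higher in cKO ganglia, beside 56.9% of all genes, with a median log2 fold change of 0.54. Of the 16, 6 had an unadjusted p under 0.05 (37.5%, beside 3% of all genes in that direction). Without cKO-131 and wt-150, where 2.23% of all genes had such a p, it was 4 of 16 with a median of 0.40. Those with the smallest p, Tyrobp (1.32), Itgam (1.253) and Lyz2 (1.23), are also expressed by neutrophils. The complement genes C1qa and C1qb of resident macrophages had unadjusted p values of 0.417 and 0.327 (edgeR). Other members differed as well. The medians in cKO and wt ganglia were 4.73 and 2.69 CPM for Cd14, 2.61 and 1.64 CPM for Ctss, and 0.315 and 0.352 CPM for Aif1. Which cells these reads came from was not tested. All 7 red blood cell markers were higher, 5 with an unadjusted p under 0.05 (71.4%), but cKO-131 alone held 228 summed CPM against 16.8 to 66.2 in the other cKO mice and 6.62 to 83.6 in wt mice. Without cKO-131 and wt-150 the count was 0 of 7, with all 7 still positive and a median log2 fold change of 0.46, against 1.17 over all mice. All 14 proliferation markers were higher, 4 with an unadjusted p under 0.05, and of 6 T and B cell markers tested 4 had such a p (28.6% and 66.7%). Without cKO-131 and wt-150 the counts were 0 of 14 and 0 of 5, with medians of 0.36 and 0.43 on the log2 scale.

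All 35 interferon response genes were higher in cKO ganglia, beside 56.9% of all genes, at a median log2 fold change of 0.32. Of the 35, 13 had an unadjusted p under 0.05 (37.1%, beside 3% of all genes in that direction). Oasl2, an antiviral gene, averaged 41.6 ± 9.75 CPM in cKO and 33.5 ± 7.86 CPM in wt ganglia (log2 fold change 0.32, SE 0.13, adjusted p = 0.999, edgeR). The list summed to 368, 536 and 796 CPM (lowest, median, highest) in cKO ganglia and to 350, 487 and 599 CPM in wt ganglia, with the highest sum in cKO-131. Without cKO-131 and wt-150 only 1 of 35 had an unadjusted p under 0.05, beside 2.23% of all genes, and the median was 0.18. The mice were also split at 12% of counts in Gm42418, Gm26917 and Gm23935, the last a short gene annotated as a miRNA on chromosome 16 (11144125 to 11144181, GRCm38), which together took 7.45% to 18.3% in cKO and 8.20% to 17.6% in wt libraries. Among the 11 mice with a high share 24 of 35 interferon genes had such a p, beside 4.37% of all genes, and among the 6 with a low share 0 of 34 did, beside 3.91%, with 17 positive. The low-share mice were only 3 cKO and 3 wt, and most were male. The high-share mice held cKO-131 and most of the Cre-negative control females. Spacer share, sex, Cre and cKO-131 therefore cannot be told apart in this split.

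Satellite glia, Schwann cell and vessel markers were higher in most members over all mice, but not in the 3 cKO and 3 wt mice with a low spacer share. Of 18 satellite glia markers 15 were positive with a median log2 fold change of 0.24, and of 18 Schwann cell myelin markers 17 with 0.22. All 14 endothelial markers were positive, with a median of 0.23. Over all genes 56.9% were positive. None of the markers in these lists had an unadjusted p under 0.05. Their sums ran from 1102 to 2379, from 701 to 1139 and from 78.7 to 371 CPM in cKO ganglia, against 1184 to 1966, 637 to 923 and 84.9 to 353 CPM in wt ganglia. The highest sum of each was in cKO-131, a mouse with a high spacer share. Without cKO-131 and wt-150 the medians were 0.13 for satellite glia, 0.08 for Schwann cells and 0.07 for endothelium. In the 6 mice with a low spacer share they were -0.17, -0.20 and -0.39, with 3 of 18, 2 of 18 and 1 of 14 positive. In the other 11 mice they were 0.42, 0.35 and 0.46. The share of all genes that were positive is not given for these subsets. Of 13 fibroblast markers 1 (Pi16), and of 11 pericyte and smooth muscle markers 0, had an unadjusted p under 0.05, beside 3.46% of all genes. The part of cell make-up in the genotype values of other genes was not tested.

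**Figure D4:**
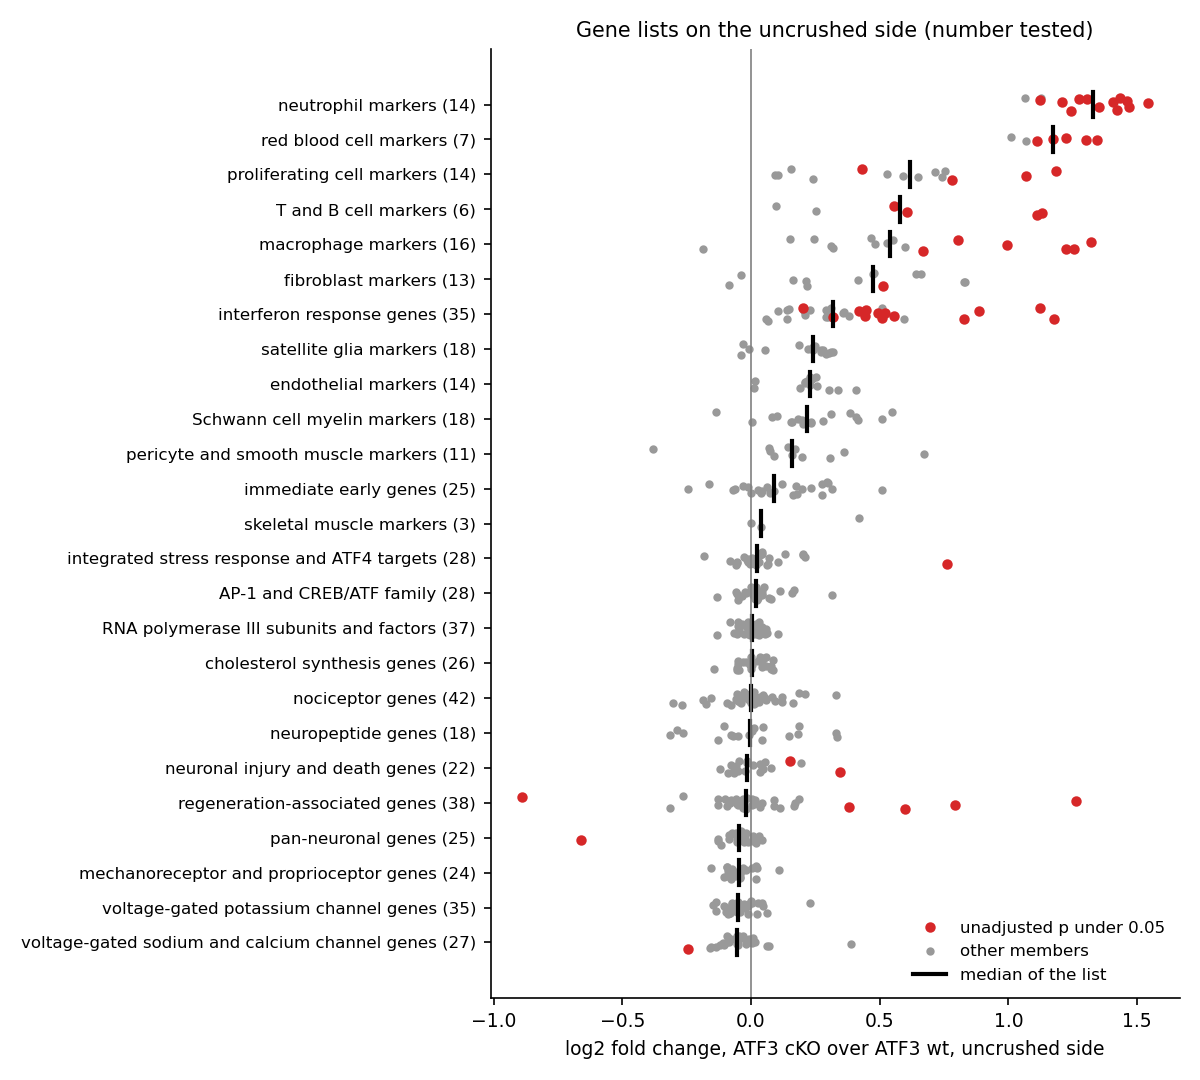
Log2 fold changes of cKO over wt on the uncrushed side for the members of 25 gene lists, each row 1 list with its number tested; red points have an unadjusted p under 0.05 and black bars are list medians. Neuronal, channel, cholesterol and RNA polymerase III lists centre near 0, while neutrophil (1.33) and red blood cell (1.17) markers stand furthest to the right.

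The single genes with the smallest p were taken among those that averaged at least 1 CPM in the higher group, a floor that Cd84, Fpr1 and Tfcp2l1 reached in that group only. On the higher side they were Cd84, a leukocyte adhesion receptor (log2 fold change 1.34), the coagulation factor gene F5 (1.35), Xlr3b, an X-linked lymphocyte-regulated gene (0.87), the decoy interleukin-1 receptor Il1r2 (1.36) and the formyl peptide receptor Fpr1 (1.66). Their unadjusted p ran from 0.000178 to 0.00096 and each adjusted p was 0.858 (edgeR). Xlr3b did not follow the neutrophil order: it was 3.99 to 4.44 CPM in cKO-130, cKO-131, cKO-152 and cKO-163 but 1.57 CPM in cKO-193, against 0.819 to 2.79 CPM in wt ganglia. On the lower side they were Ints7, a subunit of the Integrator complex (-0.17), the neuronal nitric oxide synthase gene Nos1 (-0.25), the Rac exchange factor gene Dock5 (-0.13), Yjefn3 (-0.27) and the transcription factor gene Tfcp2l1 (-0.46). Ints7 had a lowest, median and highest value of 20.3, 21.5 and 23.5 CPM in cKO and of 22.1, 23.5 and 27.3 CPM in wt ganglia, with 6 of 8 cKO mice below every wt mouse.

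Genes beside the altered loci were counted separately. Of 60 genes tested within 5000000 bases of Atf3, 7 had an unadjusted p under 0.05 (11.7%, beside 3.46% of all genes) and 0 passed. They were Ints7 (-0.17), Nsl1, a kinetochore gene (-0.28), and Plxna2, a semaphorin co-receptor gene (-0.13), on the lower side, and Tatdn3 (0.22), the mitotic kinase gene Nek2 (0.68), the steroid dehydrogenase gene Hsd11b1 (0.96) and G0s2 (0.36) on the higher side. Without cKO-131 and cKO-152 the values were smaller for Nek2 (0.28), Hsd11b1 (0.59) and G0s2 (0.23). Tatdn3 averaged 5.67 ± 0.404 CPM in cKO and 4.87 ± 0.685 CPM in wt ganglia, and Plxna2 averaged 310 ± 26.7 CPM in cKO and 338 ± 22.7 CPM in wt ganglia. On the crushed side Ints7 gave -0.19 (adjusted p = 0.098, edgeR). Of 90 genes tested within 5000000 bases of Avil, 3 had an unadjusted p under 0.05 (3.33%): Arhgap9 (1.254), Cnpy2 (0.15) and the processed pseudogene Gm9770 (0.45; chromosome 10, 130412499 to 130413309, GRCm38). In Gm9770 cKO-131 stood apart at 13.4 CPM, against 4.586 to 7.15 CPM in the other cKO mice. Arhgap9 was 0.75 without cKO-131 and cKO-152.

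A cluster of serine protease inhibitor genes on chromosome 12 split the mice in a way that crossed the genotype groups. Serpina3h had 4.61 to 10.7 CPM in 7 cKO mice and 1.22 CPM in cKO-163, against 15.0 CPM in wt-155, 11.4 CPM in wt-195 and 0.553 to 1.23 CPM in the other 7 wt mice. Serpina3f followed it: 1.59 to 2.34 CPM in 7 cKO mice and 0.0783 CPM in cKO-163, against 3.30 and 3.66 CPM in wt-155 and wt-195 and 0.0562 to 0.327 CPM in the other 7. Serpina11 and Serpina1e had 0 counts in both libraries of wt-155 and wt-195, against 1.10 to 2.36 CPM for Serpina11 in cKO mice and 1.79 to 2.57 CPM in the other wt mice. The crushed side of each mouse fell on the same side of the split, with Serpina3h at 7.89 to 19.0 CPM in 7 cKO mice and 1.19 CPM in cKO-163, against 20.3 and 18.8 CPM in wt-155 and wt-195 and 0.842 to 1.29 CPM in the other 7. These genes are close copies, the annotation calls Serpina3h a transcribed pseudogene, and reads could be split between copies.

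Over all mice neither passed, with log2 fold changes of 1.71 for Serpina3h (SE 0.62, adjusted p = 0.981, edgeR) and 1.49 for Serpina3f (SE 0.71, adjusted p = 0.999). In females alone they were the 2 of 18545 genes that passed (0.0108%), at 2.93 (SE 0.23, adjusted p = 0.000115) and 2.79 (SE 0.19, adjusted p = 5.33e-05), and in males alone the values were -0.51 and -0.69. The female and male differences were compared directly by an interaction term, which gave -3.46 for Serpina3h (SE 0.87, unadjusted p = 0.0011, adjusted p = 1, edgeR, male minus female on the log2 scale). In that test 0 of 18151 genes passed, with 117 at an unadjusted p under 0.05, and DESeq2 and limma-voom gave 0 with 107 and 129. Both high controls are Cre-positive males, but wt-172, also a Cre-positive male, was on the low side, as was cKO-163, a male among the cKO mice, all of which are Cre-positive. Every Cre-negative control was on the low side, and every high mouse was Cre-positive. The split thus matched neither sex nor the Cre label in all mice, although no Cre-negative mouse was high. In females alone all controls are Cre-negative, so genotype and Cre cannot be told apart there. The source of the split was not tested. Serpina3g, the neighbour with a higher level, averaged 58.7 ± 8.99 CPM in cKO and 61.6 ± 15.5 CPM in wt ganglia, but it ran opposite to Serpina3h. It had 40.8 CPM in wt-155 and 36.7 CPM in wt-195, against 55.6 to 79.6 CPM in the other wt mice. In cKO-163 it had 78.0 CPM, against 47.2 to 61.9 CPM in the other cKO mice. The pseudogene Serpina3e-ps had 0.902 CPM in wt-155, 0.436 CPM in wt-195 and 0.047 CPM in cKO-163. Serpina3n, an acute phase member, averaged 171.5 ± 21.8 CPM in cKO and 166 ± 15.8 CPM in wt ganglia.

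**Figure D5:**
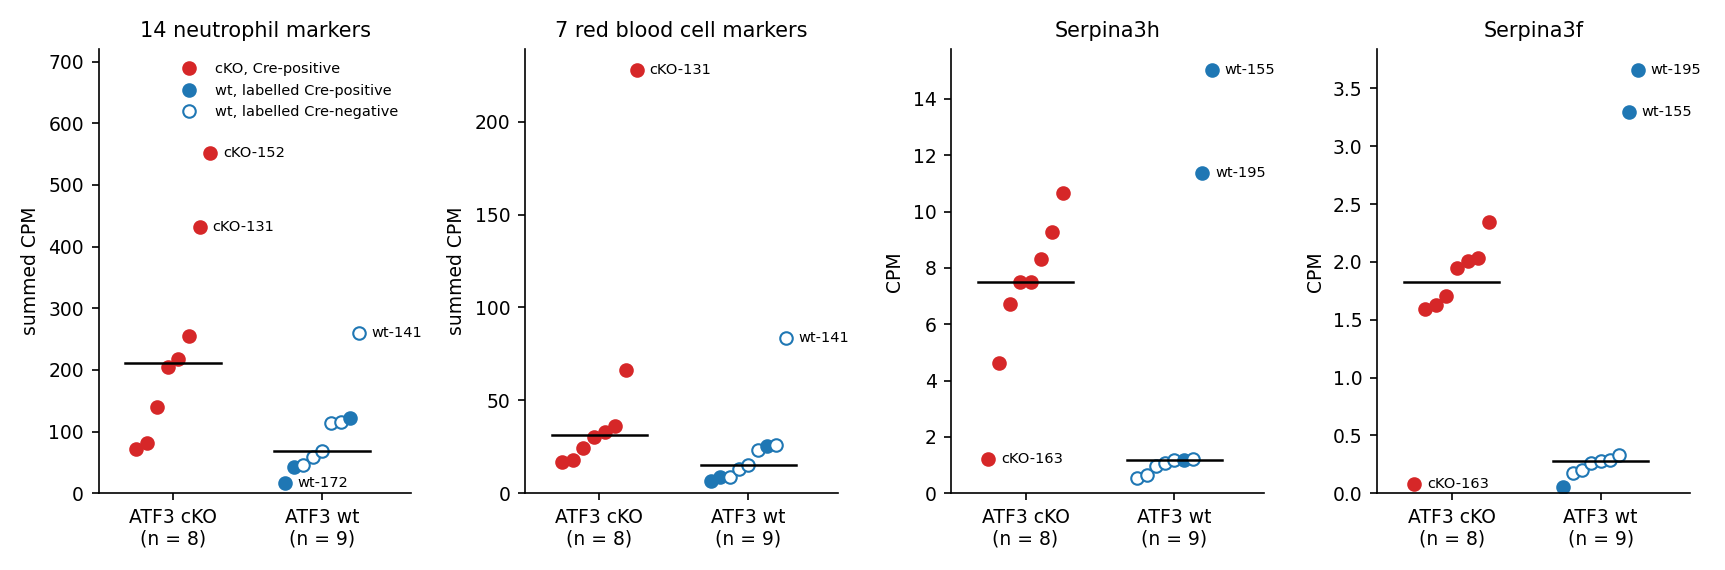
Summed CPM of 14 neutrophil and 7 red blood cell markers, and CPM of Serpina3h and Serpina3f, on the uncrushed side, 1 point a mouse with the group median as a line. The neutrophil sum is higher in most cKO mice (71.8 to 552 against 16.8 to 260 CPM), the highest red cell sum is that of cKO-131 (228 CPM), and the Serpina genes are high in 7 cKO mice and 2 wt mice.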

How the data were processed

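The authors deposited raw read counts per gene for 48795 Ensembl genes in 1 table; the 17 columns of the uncrushed side were the main data, and the 17 of the crushed side were fitted alone in the same way for comparison. The submitters' processing notes name bcl2fastq 2.20, STAR, HTSeq and the build GRCm38. HTSeq's strand setting and the other versions were not given in the sources used here. Overlapping and near-identical genes are therefore uncertain. The kit was stranded and reads paired, per the labels' protocols. Symbols matched 48349 IDs. Rows with no gene and columns of no sample numbered 0.

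The test was that of edgeR 4.0.16 (R 4.3.3): filterByExpr by genotype, TMM scaling and a robust quasi-likelihood F-test of genotype with sex as a covariate, Benjamini-Hochberg adjustment, threshold 0.05. Each mouse gives 1 library to the comparison, so p-values measure the spread between mice. SE is the size of the log2 fold change over the square root of F; for 502 genes with F under 0.001 it comes from the model weights. The bound is the further end of the 95% interval. DESeq2 1.42.0 and limma 3.58.1 were alternatives. Library pairs were compared by chi-square over genes; the closest, cKO-192 and cKO-194, differed by 9.01 times the sampling noise per degree of freedom, and no library was dropped. Scripts were tested on simulated data. Gene coordinates are GENCODE's for GRCm38, and promoter sequences RefSeq's.

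The members, the 26 gene lists and the tests were chosen with earlier results of these data known. Genes were named by rule: the 5 of each sign with the smallest p among those of at least 1 CPM in the higher group, Atf3, Avil, genes within 5000000 bases of either with an unadjusted p under 0.05, and list members. Olfm4, Scn2b and the Serpina genes outside that rule were chosen after their values were seen. The sequence of the floxed exon is not reported here.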

Additional observations from a re-analysis of the deposited data

Results flagged for a closer look

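Of the groups of 8 cKO and 9 wt mice over 96 genes, 22 held 1 mouse set apart from the rest by a gap that was large beside the group's whole range. Chance flags about 1 in 20 groups, and genes that share a mouse are not independent. The mouse cKO-131 gave 6 of these values: Avil at 85.18 CPM (other cKO mice 479.4 to 528), Hbb-bs at 107.1 CPM (6.981 to 20.23), Alas2 at 24.47 CPM (1.672 to 6.041), Kcna2 at 365.4 CPM (498.1 to 642.2), Atf1 at 9.04 CPM (5.838 to 6.989) and the pseudogene Gm9770 at 13.4 CPM (4.586 to 7.15). The mouse cKO-163 was low in Serpina3h at 1.221 CPM (4.607 to 10.66), Serpina3f at 0.07826 CPM (1.59 to 2.344), Jun at 206.3 CPM (302.9 to 418), Csf1 at 17.39 CPM (23.88 to 31.76) and Ly6c1 at 2.473 CPM (9.343 to 17.52). The mouse cKO-130 had Rgs5, a pericyte gene, at 9.543 CPM (46.46 to 72.46) and Polr3a at 40.54 CPM (33.76 to 36.61). Sox11 stood at 36.88 CPM in cKO-152 (23.81 to 27.75) and Nos1 at 77.23 CPM in cKO-192 (61.62 to 68.16).

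Among the controls, wt-141 was high in Ecel1 at 2.351 CPM (other wt mice 0.4427 to 1.049) and in Hbb-bs at 34.52 CPM (3.143 to 10.31). The mouse wt-172 was low in Csf1 at 18.53 CPM (24.13 to 30.61) and in Fosl1 at 0.2998 CPM (0.6571 to 1.085). Calca at 523 CPM (711.7 to 940.1) and Atf4 at 90.6 CPM (105.6 to 119.7) were low in wt-139, and Kcnh8 at 2.723 CPM (3.654 to 4.76) in wt-146.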

How the results depend on the processing

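Leaving out each of the 17 mice in turn, the count of genes that passed on the uncrushed side stayed at 0 (420 to 797 at an unadjusted p under 0.05), and it was 0 under the other alternatives except with no filter, where it was 1 (Sprr1a), and in females alone, where it was 2 (Serpina3h and Serpina3f). Serpina3h and Serpina3f turned to -0.51 and -0.69 in males alone; the other 42 of the 44 genes followed for their difference kept their sign throughout. Atf3, followed for its bound, was 0.16 in males alone. The count bounded within 1.5-fold was 13958 to 14506 with 1 mouse left out, and 6618 with intervals that hold for all genes at once. Of 52 genes given as bounded, 17 crossed 1.5-fold in at least 1 alternative. The interaction with sex gave 0 to 2 genes with 1 mouse left out, the 2 being Serpina11 and Serpina1e without wt-172.

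On the crushed side the 5.91% of genes that passed became 11.1% with all 34 libraries in 1 model, 9.14% in DESeq2, 0.353% and 0.651% within the low and high spacer shares, 1.03% in females, 0% in males, 0.93% by floxed copies, 2.69% and 1.99% against controls with 0 and 1 floxed copy, 3.64% with no filter, and 3.28% to 7.02% with 1 mouse left out (3.28% without wt-172). The subsets hold fewer mice; for the models and tools the cause was not tested. The planned spacer genes (Gm42418, Gm26917, AY036118) took over 12% in no library, so the split at 12% used Gm23935 in place of AY036118 and was chosen after seeing the data, as were the runs without cKO-131 and cKO-152, those of Sprr1a with no filter and all those on the crushed side. No paired analysis was possible because the groups compared share no animal. Genes under 1 CPM were the least closely bounded, and 932 of 3628 could differ by 2-fold or more; how much of this is counting error was not tested.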
